A study of Rattus norvegicus with 10 samples.

Results

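Titin, the muscle ankyrin repeat proteins and the FHL proteins that dock on titin form a set of 6 genes: Ttn, Ankrd1, Ankrd2, Ankrd23, Fhl1 and Fhl2. They were taken by gene name from the deposited expression tables, which list 39784 gene names, and each of the 6 was found on a single entry. The RNA came from wild-type neonatal rat heart cells labelled as cardiomyocytes, cultured in serum-containing medium and made to overexpress either of 2 forms of YAP, the transcriptional coactivator restrained by the Hippo pathway. The treatments are labelled Ad-Xon-YAP5SA and Ad-Xon-YAP5SA-S94A, with no dose or duration in the labels. YAP5SA is an activated form that lacks the serines through which Hippo kinases inhibit it, and YAP5SA-S94A carries a further substitution that disrupts its binding to TEAD transcription factors. There were 2 libraries per form, called biological replicates in the labels without a statement that they came from separate isolations, so the p values may measure technical spread alone. No library without a YAP transgene was among the 4 RNA-seq libraries, so a difference does not show which form departed from untreated cells.

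Titin is the giant elastic protein that runs from the Z-disc to the M-band of the sarcomere and acts as a spring and as a scaffold for signalling proteins. The muscle ankyrin repeat proteins encoded by Ankrd1, Ankrd2 and Ankrd23 bind the spring region of titin and can also enter the nucleus, and Ankrd1 is a widely used marker of YAP activity and of mechanical stress in the heart. FHL1 and FHL2 are built of LIM zinc-finger domains and bind another part of the same spring, where FHL1 is known as part of a stretch-sensing kinase complex and FHL2 as a docking site for metabolic enzymes and as a partner of the serum response factor SRF.

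The sequence before the start of transcription is shown for the members that differed between the forms and had a RefSeq entry of build GRCr8, because the comparison turns on binding of YAP to TEAD. The table held 5 of the 6 members, with 7 start sites between them; Ankrd1 is named only. Both strands of the 250 bases before each start were searched for the TEAD core (GGAATG, read as CATTCC on the other strand), for the CArG box bound by SRF and for the MEF2 site. Capitals mark the matches. The Ankrd23 and Ttn sequences leave out the 68 and 20 bases within the annotated span of the gene itself. The outer Fhl2 sequence is shown in full. For the inner Fhl2 start and the Fhl1 start with a match, which lie within the span of their gene, 30 bases around the match are shown.
Ankrd23 (chr9:46274579-46274760, minus strand, TEAD core in capitals): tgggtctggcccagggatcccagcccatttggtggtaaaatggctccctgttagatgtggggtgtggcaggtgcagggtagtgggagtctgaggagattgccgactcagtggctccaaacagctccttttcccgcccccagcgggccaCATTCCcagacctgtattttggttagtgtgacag
Ttn (chr3:82332131-82332360, minus strand, MEF2 site in capitals): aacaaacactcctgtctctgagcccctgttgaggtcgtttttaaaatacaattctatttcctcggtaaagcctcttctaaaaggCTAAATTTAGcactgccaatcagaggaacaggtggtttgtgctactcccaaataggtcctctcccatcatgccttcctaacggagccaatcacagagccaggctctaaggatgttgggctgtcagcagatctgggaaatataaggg
Fhl2, outer start (chr9:52954541-52954790, minus strand; the first run of capitals is a CArG box, the second a TEAD core followed directly by a MEF2 site): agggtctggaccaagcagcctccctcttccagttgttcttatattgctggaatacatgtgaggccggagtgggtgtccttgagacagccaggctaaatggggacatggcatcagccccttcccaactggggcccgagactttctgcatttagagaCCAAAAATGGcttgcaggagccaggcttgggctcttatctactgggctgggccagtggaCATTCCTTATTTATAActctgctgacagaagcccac
Fhl2, inner start (chr9:52923365-52923394, minus strand, CArG box in capitals): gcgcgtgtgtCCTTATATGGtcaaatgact
Fhl1, start with a match (chrX:139638384-139638413, plus strand, CArG box in capitals): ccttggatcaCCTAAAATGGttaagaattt

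Among 33469 promoter windows of the same length, 12.1% held a TEAD core, 1.5% a CArG box and 2.96% a MEF2 site. The TEAD core was found in Ankrd23 and in the outer Fhl2 window, genes that differed in opposite directions between the forms. Both Fhl2 windows and one of the Fhl1 windows held a CArG box, and these genes too differed in opposite directions. The window of Ankrd2 and the other window of Fhl1 held none of the 3 motifs. Both Fhl1 windows lay within the annotated span of the gene, and the sequence before the outer end of that span was not searched. A match is a description of the letters in a short window and not evidence of a bound site.

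Expression is given in TPM, a transcript abundance scaled for gene length and for the library total, so that genes can be compared. A log2 difference is the YAP5SA mean less the YAP5SA-S94A mean of log2(TPM + 1), and for genes of low level it is smaller than the fold of the means. Genes called, or said to rise or fall, had a limma p under 0.05 with Benjamini-Hochberg adjustment across the 13420 genes that averaged at least 1 TPM. The libraries corresponded to 4.02 to 5.10 gigabases of aligned sequence. On this test 17.4% of the genes were called higher and 15.5% lower in YAP5SA, 32.9% in all. Of the 6 members 5 were tested, with 3 called higher (Ankrd1, Ankrd23 and Fhl1) and 2 lower (Ttn and Fhl2). Ankrd23 passed the filter only through its level in YAP5SA, so the count of called members is not evidence about the set, and Ankrd2 did not pass. The smallest two-sided p of an exact permutation test at this size is 0.333, and limma borrows its estimate of spread from all genes. In the 5 tested members the groups did not overlap, as in 68.2% of the tested genes (34.5% higher and 33.8% lower in YAP5SA).

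**Figure D1:**
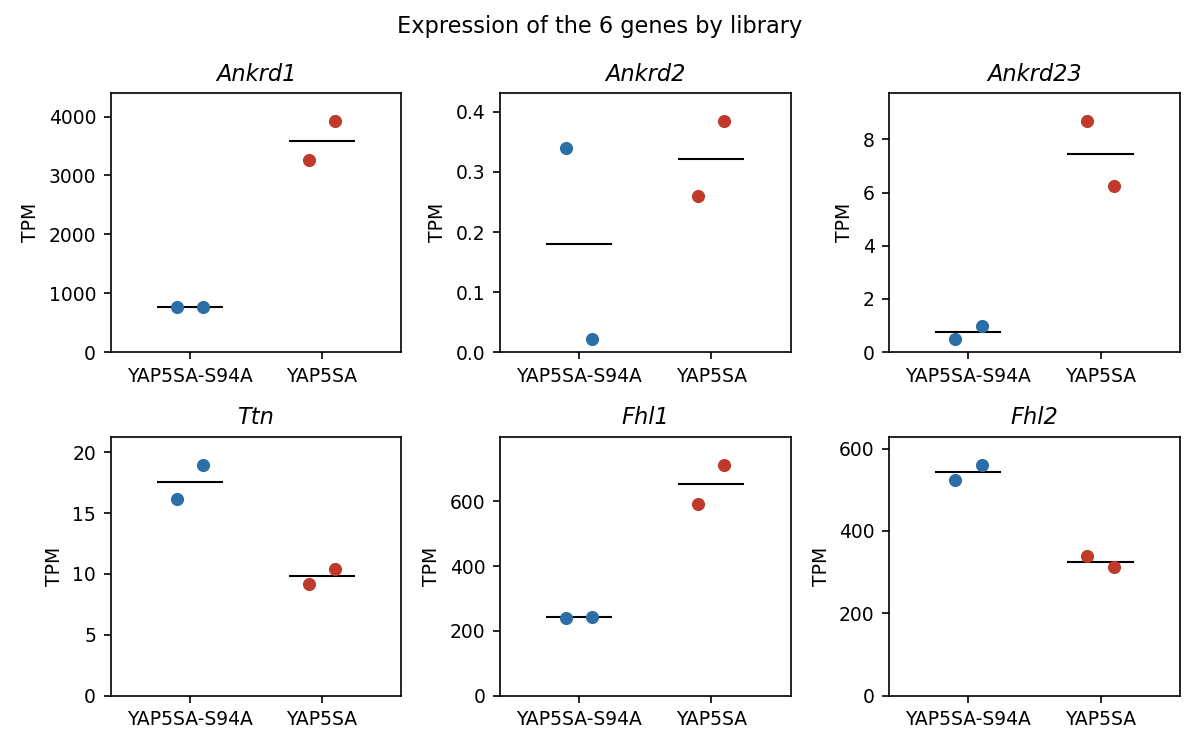
TPM of each gene (vertical axes, each starting at 0) in the 2 YAP5SA-S94A libraries (blue) and the 2 YAP5SA libraries (red); points are libraries and horizontal lines group means. Ankrd1, Ankrd23 and Fhl1 lie higher in both YAP5SA libraries, Ttn and Fhl2 lie lower, and the groups overlap for Ankrd2.

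Of the muscle ankyrin repeat genes, Ankrd1 was by far the most abundant (chromosome 1, 233815851 to 233834891, minus strand, rn7). It stood at 3262 and 3921 TPM in YAP5SA replicates 1 and 2 and at 765 and 767 TPM in YAP5SA-S94A replicates 1 and 2. Among the tested genes it ranked 27th and 20th by TPM in the YAP5SA libraries and 192nd and 194th in the others. The 2 YAP5SA-S94A libraries lay almost at one level, whereas the 2 YAP5SA libraries differed from each other by more than the spread of the other group and both lay far above it. The means were 3591 ± 467 and 766 ± 1.44 TPM (SD, n = 2 each), a 4.69-fold difference (log2 difference 2.22, SE 0.11, limma adjusted p = 2.87e-05).

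Ankrd23, which encodes an ankyrin repeat protein also known from skeletal muscle and linked to energy metabolism, rose from a level near the detection limit (chromosome 9, 38773234 to 38778705, minus strand). It read 8.69 and 6.26 TPM in YAP5SA and 0.51 and 0.981 TPM in YAP5SA-S94A. Both YAP5SA libraries exceeded both of the others, with means of 7.47 ± 1.72 and 0.746 ± 0.333 TPM, a 10.0-fold difference. On the log2 scale the change was 2.28 (SE 0.26, limma adjusted p = 7.69e-04). Its size depended on the value added before taking logs, being 3.20 with 0.1 in place of 1, and it was 1.59 with FPKM. Mean read coverage of the gene was 15.7 and 8.26 in YAP5SA against 0.96 and 1.81 in YAP5SA-S94A, so the lower group rests on few reads. With 1 added to TPM the log2 difference of Ankrd23 (2.28) was close to that of Ankrd1 (2.22), while the fold of the means was larger, 10.0 against 4.69.

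Ankrd2, the family member typical of slow skeletal muscle, was barely detected (chromosome 1, 240847111 to 240856563, plus strand). It read 0.26 and 0.385 TPM in YAP5SA and 0.339 and 0.0219 TPM in YAP5SA-S94A, with mean read coverage between 0.043 and 0.678. The groups overlapped, and the lowest library, YAP5SA-S94A replicate 2, stood apart from the other 3. Tested without the filter on low values, the difference was 0.18 (SE 0.16, limma adjusted p = 0.535). A difference in Ankrd2 was not detectable at this depth.

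Ttn fell in YAP5SA (chromosome 3, 61652432 to 61924912, minus strand). It stood at 9.20 and 10.4 TPM in YAP5SA and at 16.1 and 19.0 TPM in YAP5SA-S94A. The highest YAP5SA value lay below the lowest YAP5SA-S94A value, and the means of 9.80 ± 0.851 and 17.6 ± 1.99 TPM differed 1.79-fold (log2 difference −0.78, SE 0.16, limma adjusted p = 0.009). The call was lost without YAP5SA-S94A replicate 2, the library with the highest value (log2 difference −0.67, limma adjusted p = 0.0815).

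Although titin is an abundant protein, Ttn was listed at a modest level per length. It ranked 9189th and 8628th by TPM among the tested genes in YAP5SA and 7095th and 6551st in YAP5SA-S94A. Its mean read coverage of 15.5 to 36.7 per base was spread over a gene with a genomic span of 272481 bases. Coverage divided by the gigabases aligned was 3.63 and 3.86 in YAP5SA against 6.33 and 7.38 in YAP5SA-S94A, a 1.83-fold difference against 1.79-fold by TPM. Both measures come from the same reads, so scaled coverage is not an independent check on TPM, here or for the other members. Other tested genes with a span of at least that of Ttn, examined after its value was seen, numbered 403, of which 88 (21.8%) were called higher and 71 (17.6%) lower, with a median log2 difference of 0.09 against 0.00 over all tested genes. These genes were chosen by genomic span, introns included, and transcript length was not compared. The 2 other annotated entries within the span of Ttn were at 0 TPM in all 4 libraries.

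The FHL genes moved in opposite directions. Fhl1 rose (chromosome X, 134555399 to 134614930, plus strand), from 241 and 242 TPM in YAP5SA-S94A to 593 and 713 TPM in YAP5SA. As for Ankrd1, the 2 YAP5SA-S94A libraries were nearly equal and YAP5SA replicate 2 was the highest library. The means were 653 ± 85.0 and 241 ± 0.865 TPM, a 2.71-fold difference (log2 difference 1.43, SE 0.11, limma adjusted p = 1.30e-04).

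Fhl2 fell (chromosome 9, 45388979 to 45462421, minus strand). It read 339 and 312 TPM in YAP5SA and 525 and 561 TPM in YAP5SA-S94A. All 4 values were of the same order, and the gap between the groups exceeded the spread within either. The means of 325 ± 19.3 and 543 ± 25.6 TPM differed 1.67-fold (log2 difference −0.74, SE 0.09, limma adjusted p = 0.00117). Scaled coverage gave 2.63-fold for Fhl1, higher in YAP5SA, and 1.68-fold for Fhl2, higher in YAP5SA-S94A.

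**Figure D2:**
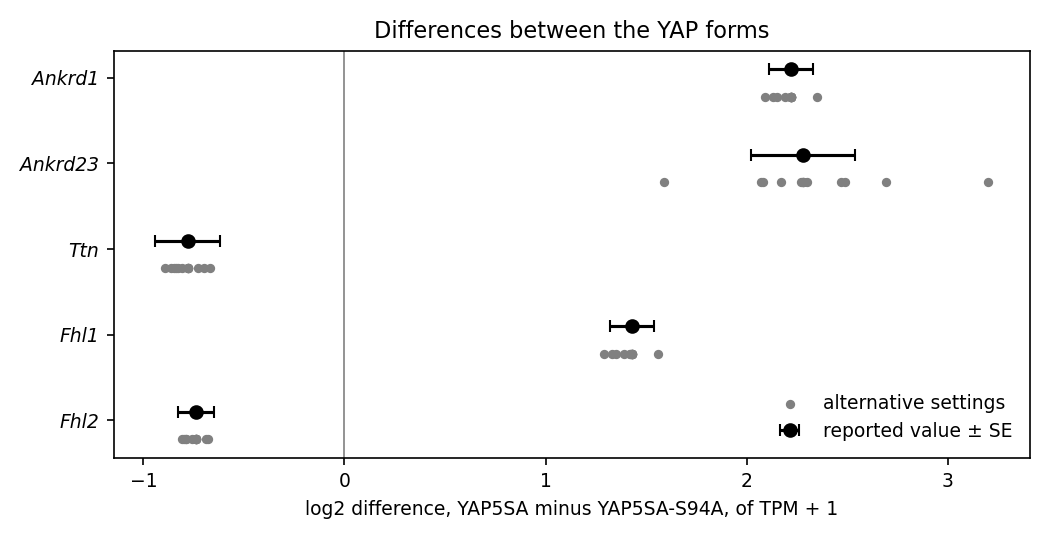
Log2 difference of TPM + 1, YAP5SA minus YAP5SA-S94A (horizontal axis), for the 5 tested genes; black points are the values reported with their SE and grey points the alternative settings. No gene crosses 0 in any setting, and Ankrd23 spreads most, from 1.59 to 3.20.

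By mean TPM in YAP5SA-S94A the order was Ankrd1, Fhl2, Fhl1, Ttn, Ankrd23 and Ankrd2. In YAP5SA it was Ankrd1, Fhl1, Fhl2, Ttn, Ankrd23 and Ankrd2, so by TPM Fhl1 and Fhl2 changed places. By the deposited per-base coverage they did not: Fhl1 read 93.1 and 83.5 in YAP5SA and 37.0 in both YAP5SA-S94A libraries, below Fhl2 at 605 and 410 and at 902 and 943. The coverage of Fhl1 relative to its TPM was far lower than for the other members, for a reason not tested, so its level against another gene depends on the measure, whereas its difference between the forms was 2.63-fold by scaled coverage and 2.71-fold by TPM. Within YAP5SA the values of Ttn (9.20 and 10.4 TPM) and Ankrd23 (8.69 and 6.26 TPM) were separated by less than the range of Ankrd23, and in YAP5SA-S94A the same held for Ankrd23 (0.51 and 0.981 TPM) and Ankrd2 (0.339 and 0.0219 TPM). By TPM every other pair of neighbours in these orders was set apart by more than the spread of either gene.

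Ratios between members within a library do not depend on how libraries are scaled to each other. The ratio of Fhl1 to Fhl2 was 0.459 and 0.432 in YAP5SA-S94A and 1.75 and 2.29 in YAP5SA, a difference of 2.17 on the log2 scale. By TPM Fhl2 was the higher of the pair in both YAP5SA-S94A libraries and Fhl1 in both YAP5SA libraries, an exchange that coverage did not show. Relative to Ttn, Ankrd1 stood at 47.4 and 40.5 in YAP5SA-S94A and at 355 and 377 in YAP5SA (log2 difference 3.06). Fhl1 over Ttn changed from 14.9 and 12.8 to 64.5 and 68.6 (2.27), and Ankrd23 over Ttn from 0.0316 and 0.0517 to 0.945 and 0.602 (4.22). These 4 ratios did not overlap between the forms. That follows from dividing a gene higher in YAP5SA by one lower in YAP5SA, so it is no separate result. Ankrd2 over Ttn did not overlap either, at 0.021 and 0.00115 in YAP5SA-S94A and 0.0283 and 0.037 in YAP5SA, with Ankrd2 at the limit of detection.

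Fhl2 over Ttn, by contrast, was 32.5 and 29.6 in YAP5SA-S94A and 36.9 and 30.0 in YAP5SA, a log2 difference of 0.10 with overlapping values. Its sign changed without YAP5SA replicate 1 (−0.05). Ankrd2, at the limit of detection, gave a log2 difference of 2.72 over Ttn and −0.35 over Ankrd1, and the latter became 1.63 without YAP5SA-S94A replicate 1. The value over Ttn ran from 0.62 without YAP5SA-S94A replicate 2 to 4.81 without YAP5SA-S94A replicate 1, and was 0.95 with 1 added to both TPM values. Of the 7 ratios compared, 5 reached the smallest two-sided p of the exact permutation test, 0.333 (0.467 after adjustment), with 0.667 for Fhl2 over Ttn and 1.0 for Ankrd2 over Ankrd1. None could pass a threshold of 0.05 with 2 libraries per form.

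**Figure D3:**
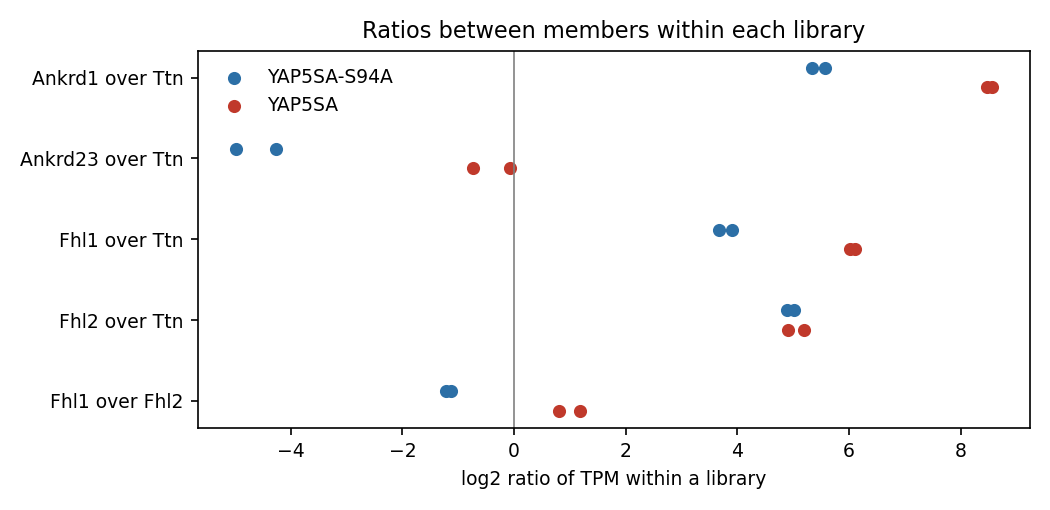
Log2 ratio of TPM between the named genes within each library (horizontal axis), YAP5SA-S94A in blue and YAP5SA in red, 2 points each. Fhl1 over Fhl2 lies below 0 in both YAP5SA-S94A libraries and above 0 in both YAP5SA libraries, and Fhl2 over Ttn overlaps; the ratios of Ankrd2, at the limit of detection, are not drawn.

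**Figure D4:**
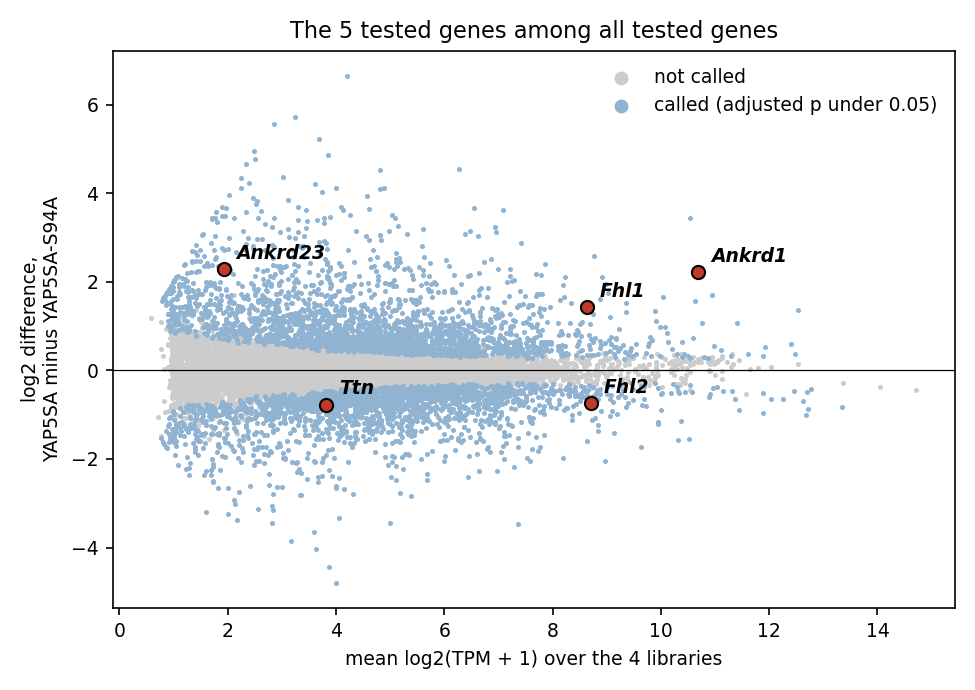
Log2 difference (vertical axis) against mean log2(TPM + 1) over the 4 libraries (horizontal axis) for the 13420 tested genes, called genes in blue and others in grey, with the 5 tested members in red. Ankrd1 combines a high level with a change of 2.22, and Ttn and Fhl2 lie within the band of called decreases of under 1.

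The labelled cell type was checked against fixed markers. Cardiomyocyte genes were abundant, with 9 markers summing to 24610 and 25710 TPM in YAP5SA and 30320 and 30530 TPM in YAP5SA-S94A; of the 9, 6 were called lower and 1 higher. The sum, carried mostly by Myl2, Tnnt2 and Actc1, was 0.827-fold in YAP5SA. Single markers ran from 0.302-fold for the myosin gene Myh6 to 1.51-fold for the actin gene Actc1. Myh6, Tnni3 (0.342), Pln (0.448) and Myl7 (0.465) were lower than Ttn (0.558) and Fhl2 (0.599) by this measure, and the other 5 were not. Smooth muscle markers moved the other way, from 1224 and 1176 TPM to 6734 and 6507 TPM, with 4 of 6 called higher, led by the actin gene Acta2 (449 against 4877 TPM), while the smooth muscle myosin gene Myh11 had a log2 difference of 0.12 and was not called. Fibroblast markers summed to between 6748 and 8527 TPM in all libraries, with 2 of 8 called lower (Dcn and Postn) and the others not called. Skeletal muscle markers summed to 1066 and 983.8 TPM in YAP5SA-S94A and to 282.5 and 215.0 TPM in YAP5SA. Nearly all of it was Ckm, the muscle creatine kinase gene. Of the 2 genes tested, Ckm was called lower and Tnnt3 was not called. The myogenic genes Myod1, Myf5 and Pax7 were at 0 in every library. Endothelial markers (17.0 to 29.1 TPM), macrophage and leukocyte markers (101 to 111 TPM) and epicardial and mesothelial markers (29.2 to 49.9 TPM) were low, with 1, 1 and 2 called higher and 1, 1 and 0 lower. Single genes among them, outside the naming rule, moved more than the sums. From YAP5SA-S94A to YAP5SA the mean of Upk3b rose from 0.58 to 20.3 TPM. That of Tek rose from 3.68 to 11.6 TPM and that of Kdr fell from 20.6 to 3.65 TPM. The mitochondrial share of TPM was 12.6% and 14.0% in the YAP5SA-S94A libraries against 7.53% and 10.2%, and with that chromosome left out the 5 tested members kept their calls. The part of the marker shifts in the differences of Ttn, Fhl1, Fhl2 and the ankyrin repeat genes was not tested, and in bulk RNA fewer cells of a type cannot be told apart from less RNA per cell.

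Partners of titin at the Z-disc, I-band and M-band fell more often than they rose. Of 22 listed genes 20 were tested, with 9 called lower and 3 higher, where 15.5% and 17.4% of all tested genes were, and the median log2 difference was −0.37 against 0.00. The fall was not particular to titin partners, since of the 9 cardiomyocyte markers 6 were called lower and 1 higher. The list was also chosen with earlier results of these data known. Myom2, an M-band protein that crosslinks titin and myosin, fell from 388 ± 4.15 to 94.4 ± 15.3 TPM (log2 difference −2.04, SE 0.12, limma adjusted p = 5.17e-05). Trim63, a ubiquitin ligase that binds titin near its kinase domain, fell by 1.46, and Sqstm1, the autophagy receptor that docks on that kinase domain through NBR1, fell by 1.40. Others that fell, outside the naming rule, included Trim54, Nebl, Myom1, Mybpc3 and Nbr1, with log2 differences from −2.19 for Trim54 to −0.58 for Nbr1.

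The titin partners that rose were Cryab, a small heat shock protein that binds the titin spring, and, outside the naming rule here, Palld and Csrp3. Cryab stood at 3611 and 3462 TPM in YAP5SA and 1095 and 1085 TPM in YAP5SA-S94A (log2 difference 1.70, limma adjusted p = 3.03e-05). Its entry overlaps 1088 bases of Hspb2 on the opposite strand, at a mean of 325.5 TPM and a log2 difference of 0.80, and the use of strand in counting is not given in the sources used here. The count called higher was 5 without YAP5SA replicate 2. Tcap, the Z-disc anchor of titin, and Mypn, which binds Ankrd1, had log2 differences of 0.10 and −0.40 and were not called.

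Of the 6 listed genes that control muscle splicing, all tested, 1 was called higher and 3 lower, where 17.4% and 15.5% of all tested genes were, and the median log2 difference was −0.41 against 0.00. Rbfox2 and Qki were not called. Rbm20, the splicing factor that governs the length of the titin spring, read 55.7 and 53.1 TPM in YAP5SA and 75.8 and 87.1 TPM in YAP5SA-S94A (log2 difference −0.57, SE 0.11, limma adjusted p = 0.00837). Its call was lost without YAP5SA-S94A replicate 2 (−0.47, limma adjusted p = 0.113). Ptbp1, a general splicing repressor, rose from 82.1 ± 8.50 to 156 ± 13.5 TPM (log2 difference 0.91). Rbm24, a muscle splicing activator, fell by 0.78, and Rbfox1, at 3.15 ± 0.275 against 0.672 ± 0.161 TPM, by 1.31. Rbfox1 passed the filter only through YAP5SA-S94A, so the count called lower is not evidence about the list. Its log2 difference was −2.09 with 0.1 added in place of 1. The call of Rbm24 was lost with no filter on low values (limma adjusted p = 0.0643). The tables are per gene, so isoforms of titin and of the FHL genes were not compared.

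Of 10 listed partners and regulators of the ankyrin repeat proteins 9 were tested, with 2 called higher and 1 lower, shares near the 17.4% and 15.5% of all tested genes, and a median of 0.10. Casq2, the calcium buffer of the sarcoplasmic reticulum and a reported partner of ANKRD1, rose from 431 ± 10.9 to 821 ± 53.7 TPM (log2 difference 0.93, limma adjusted p = 4.06e-04). Des, the intermediate filament gene desmin, fell by 0.52. Its call was lost with no filter on low values (limma adjusted p = 0.078) and without an intensity trend (0.062). The cofactor gene Ybx1 (log2 difference 0.07) and the cardiac transcription factor genes Gata4 (0.20) and Nkx2-5 (−0.62) were not called. With libraries left out the counts ran from 1 called higher without YAP5SA-S94A replicate 1 to 4 without YAP5SA replicate 2, and the lower count was 3 without YAP5SA replicate 1 and 2 without YAP5SA-S94A replicate 2.

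Other LIM-domain genes of muscle and adhesions held members that moved each way. Of 20 listed 19 were tested, with 8 called higher and 4 lower, where 17.4% and 15.5% of all tested genes were, and a median of 0.28 against 0.00. Lmcd1, a LIM protein that restrains GATA6 (96.6 ± 0.475 against 26.5 ± 0.24 TPM, log2 difference 1.83, limma adjusted p = 4.28e-05), and Lmo7, a junctional and nuclear LIM protein (262 ± 13.9 against 81.2 ± 3.30 TPM, 1.68), rose most. Zyx, the focal adhesion protein zyxin, rose by 1.27 and Csrp3, the muscle LIM protein of the Z-disc, by 0.61. The closest relative of the members, Fhl3, was not called (0.22), and Fhl5 was not tested. The genes that fell, outside the naming rule, were Ablim1, Lims2, Csrp2 and Crip2, and their number was 2 without either YAP5SA-S94A library.

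Of 13 signalling partners of FHL proteins, all tested, 2 were called higher and 2 lower, shares near the 17.4% and 15.5% of all tested genes, with a median of −0.04. Itga7, the laminin-binding integrin subunit of muscle, rose from 62.8 ± 2.16 to 170 ± 25.8 TPM (log2 difference 1.41, limma adjusted p = 2.62e-04), and its partner Itgb1 rose by 0.57. Ppp3ca, the calcineurin catalytic subunit gene, fell by 0.39, a call lost without YAP5SA replicate 2 (limma adjusted p = 0.0886) and without YAP5SA-S94A replicate 1 (0.401) or 2 (0.115). It was lost as well with no filter on low values (limma adjusted p = 0.0889), with FPKM (0.0616) and without an intensity trend (0.0977). The kinase genes Map2k1, Map2k2 and Mapk3 had log2 differences of 0.15, 0.03 and −0.03 and were not called. The count called lower was 4 without YAP5SA replicate 1, 1 without YAP5SA replicate 2 and 0 without either YAP5SA-S94A library.

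**Figure D5:**
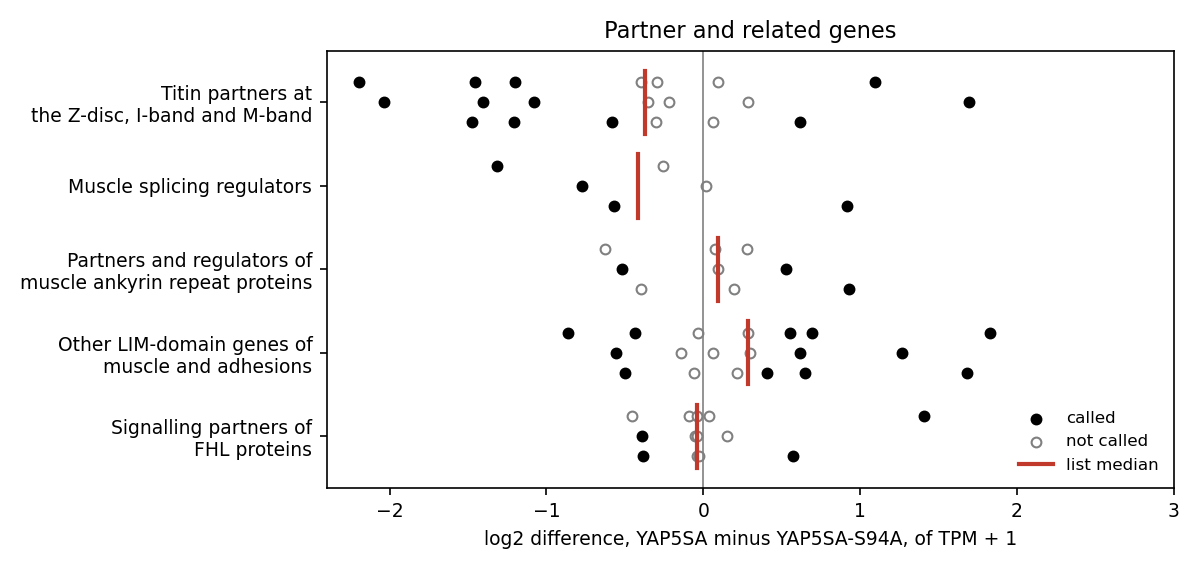
Log2 difference of TPM + 1, YAP5SA minus YAP5SA-S94A (horizontal axis), of the tested genes in each list (rows); filled points are called genes, open points others and red bars list medians. The titin partners lie mostly below 0 with a median of −0.37, and the LIM-domain genes lie on both sides with a median of 0.28.

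The genes whose pattern was most like that of Ankrd1 were found by the Euclidean distance between log2(TPM + 1) values over the 4 libraries, each gene centred on its mean, among 12477 tested genes with a symbol. The 5 nearest were the pseudogene Zfp35-ps1 (distance 0.081), Mphosph8, a reader of silenced chromatin (0.082), the lectin gene Clec2d (0.087), which passed the filter only through YAP5SA, Ctps1, which makes cytidine triphosphate (0.109), and Msmo1 of cholesterol synthesis (0.12). Their log2 differences ran from 2.12 for Msmo1 to 2.26 for Zfp35-ps1. By fold of the means Clec2d differed 19.2-fold (5.03 TPM in YAP5SA against 0.261 TPM in YAP5SA-S94A). The others ran from 4.47-fold for Msmo1 to 5.01-fold for Zfp35-ps1. Near Ttn lay Cyth4 (0.028), Lrrc63 (0.039), the aldo-keto reductase gene Akr1b10 (0.045), the calcium sensor gene Stim1 (0.046) and the zinc finger gene Zfp110 (0.047), whose entry overlaps Zfp329 on the opposite strand. Their log2 differences ran from −0.82 for Akr1b10 to −0.74 for Lrrc63, which was not called (limma adjusted p = 0.0731). Lrrc63 passed the filter only through YAP5SA-S94A, with means of 0.561 TPM in YAP5SA and 1.61 TPM in YAP5SA-S94A. Those means differed 2.875-fold, against 1.79-fold for Ttn. The calls of Cyth4, Akr1b10, Stim1 and Zfp110 were lost without YAP5SA-S94A replicate 2, as that of Ttn was. These genes were picked for values like those of Ttn, so a shared loss is no separate result. With no filter on low values the calls of Cyth4 and Akr1b10 were lost (limma adjusted p = 0.0774 and 0.0711). Those of Ttn (0.0393), Stim1 (0.0492) and Zfp110 (0.04) were kept. With 4 libraries nearness in pattern mostly restates the size of the log2 difference of TPM + 1 between the forms.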

How the data were processed

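RNA-seq of 4 libraries was analysed; the 6 CUT&RUN samples of the 10 in the series were not analysed here. Libraries kept strand and were made from poly(A) RNA, per the labels. Per the submitters' processing notes, fastp, HISAT2 2.2.1 and StringTie 2.2.1 were used with build rn7, with settings and the use of strand not given in the sources used here. The TPM and FPKM values were computed by the authors, and the deposited Coverage signal is the mean per-base read coverage, not scaled for depth. Gigabases aligned were read from coverage over FPKM, taking its maximum in each table. Entries sharing a name were summed.

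Log2(TPM + 1) values of genes with a mean of at least 1 TPM were tested with limma 3.58.1 in R 4.3.3 and a trend of variance with level, on 2 residual degrees of freedom plus 5.09 from the prior. The method was tested on simulated data. Named genes were the 6 members, up to 4 called genes with the smallest p per list, the 5 nearest in pattern to Ankrd1 and to Ttn, and the highest gene of each marker list that moved. The counts cover whole lists, of which some genes are not reported here by name. The members and lists were chosen with earlier results of these data known. Alternatives were other pseudocounts, filters, units, scalings and variance models, a replicate block, and leaving out single libraries. Python 3.11.15 with scipy 1.17.1 gave the permutation tests.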

Additional observations from a re-analysis of the deposited data

How the results depend on the processing

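Ankrd1, Fhl1 and Fhl2 kept their direction and call in all 14 alternative settings and Ankrd23 in the 13 in which it was tested (it failed a filter of 5 TPM), with log2 fold changes of 2.09 to 2.35, 1.29 to 1.56, −0.81 to −0.68 and 1.59 to 3.20. Ttn ran from −0.89 to −0.67, and its call was lost without YAP5SA-S94A replicate 2 (limma adjusted p = 0.0815). Fewer libraries leave fewer residual degrees of freedom, and a lone library was assumed to vary like the other group. The spread borrowed from all genes was also estimated anew in each of these fits. The SE of Ttn was 0.29 without either YAP5SA-S94A library, against 0.16 with all 4 libraries. The p values of these fits therefore rest on a different estimate of spread from those of all 4 libraries. With each library left out in turn, 1 to 2 members were called lower, and 1299 to 2891 tested genes were called lower against 2083. In the same settings the titin partners called higher numbered 3 to 5, the ankyrin repeat partners 1 to 4 higher and 1 to 3 lower, the LIM-domain genes 2 to 5 lower and the FHL partners 0 to 4 lower. The log2 difference in Fhl2 over Ttn ran from −0.05 to 0.25 and that in Ankrd2 over Ankrd1 from −2.33 to 1.63.

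Among the ankyrin repeat partners, 1 was called higher and 0 lower with no filter and again without an intensity trend; the number lower was 3 when mitochondrial genes were dropped, 2 under the replicate block, 3 under median-of-ratios scaling and 2 after quantile normalization. LIM-domain genes called lower numbered 2 without an intensity trend. FHL partners called lower numbered 0 with no filter, 1 with FPKM and 0 without an intensity trend. The cause was not tested. The block called 2726 genes higher and 2593 lower; deviations of same-numbered libraries correlated at r = 0.101 over genes, and with 2 numbers and no statement in the labels the pairing is only a shared number. These numbers are those of the sample titles; the library names carry other numbers, of which the forms share only 1, so no block can be fitted on them. Among the 29 other named genes, 373 of 398 alternative values kept direction and call, 23 lost the call, 2 gained it and 0 reversed. Low coverage limits Ankrd2 and the YAP5SA-S94A level of Ankrd23.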
